A study of Caenorhabditis elegans with 9 samples.

Results

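The genes *hrg-3* (F58E6.7) and *hrg-7* (C15C8.3) of the nematode *Caenorhabditis elegans* encode secreted heme factors. They were taken by name: a probe set was kept where the platform annotation gave *hrg-3* or *hrg-7* as its only gene symbol. Each gene had 1 such probe set, so the members were 2 of the 17118 genes that the array named in this way. Genes named *hrg* were first picked as heme-responsive with the help of these arrays, so a response of *hrg-3* or *hrg-7* to hemin is not independent evidence of its direction.

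Synchronized larvae had been grown without bacteria in mCeHR-2, a liquid medium, to which hemin (the chloride of heme's oxidised form) was added at 4, 20 or 500 uM. They were harvested at the late L4 larval stage, and total RNA of 3 biological replicates per concentration, lettered A, B and C, was hybridized to 1 Affymetrix whole genome array each, 9 arrays in all. The study set 4 and 500 uM against 20 uM hemin, and no strain is named in the labels. The animals were whole larvae, so more cells of a type and more RNA per cell cannot be told apart.

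*C. elegans* cannot make heme and takes it up from its food through the intestine. In this animal the small protein HRG-3 is known to be secreted by the intestine when heme is scarce and to carry heme from the mother to oocytes, embryos and other tissues. HRG-7 resembles the cathepsin-like aspartic proteases. It is known as a signal that the intestine secretes towards neurons when heme is low, and a return signal to the intestine involves DBL-1, a ligand of the bone morphogenetic protein family.

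Values are log2 expression values of a probe set on an array, as the authors normalized them, and a difference of 1 is a doubling. The whole table ran from 2.02 to 14.37. Differences are given with the standard error (SE) of limma, a linear model fitted to 16911 gene probe sets at once, and p-values adjusted over all of these. A call is an adjusted p under 0.05. The number of arrays limits the precision, as does the bottom of the scale for dim probe sets. One array was unlike the rest: 4 uM replicate A correlated at a Spearman rho of 0.973 to 0.985 with the other 8, whose lowest rho among themselves was 0.990. The *hrg-3* and *hrg-7* differences of 4 against 20 uM are therefore also given without it, and list counts where they changed.

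At 4 uM hemin the *hrg-3* probe set read 7.09, 8.41 and 8.59 on replicates A, B and C. At 20 uM it read 2.41, 2.42 and 2.27, and at 500 uM 2.58, 2.47 and 2.57. The 3 arrays of 4 uM hemin were thus high and the other 6 lay together near the bottom of the scale, with a gap of 4.51 between the lowest value at 4 uM and the highest at 500 uM. On the 20 and 500 uM arrays only 0.310% to 3.14% of all gene probe sets read lower than *hrg-3*. Of 8 control probe sets on the array that target no worm gene (yeast genes and trpn), 0 to 2 read lower on any of these 6 arrays, whereas all 8 read lower on every 4 uM array. At 20 and 500 uM hemin the *hrg-3* value is therefore only a bound on its level, and the order of these groups carries no information.

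The *hrg-7* probe set read 12.44, 12.58 and 12.66 at 4 uM hemin, 8.24, 8.68 and 8.73 at 20 uM, and 7.41, 7.27 and 7.56 at 500 uM. Each concentration held its own range: the lowest 4 uM array lay 3.71 above the highest 20 uM array, and the lowest 20 uM array lay 0.68 above the highest 500 uM array. On every array *hrg-7* read above all 8 of the yeast and trpn control probe sets, so its level was measured at all 3 concentrations.

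**Figure D1:**
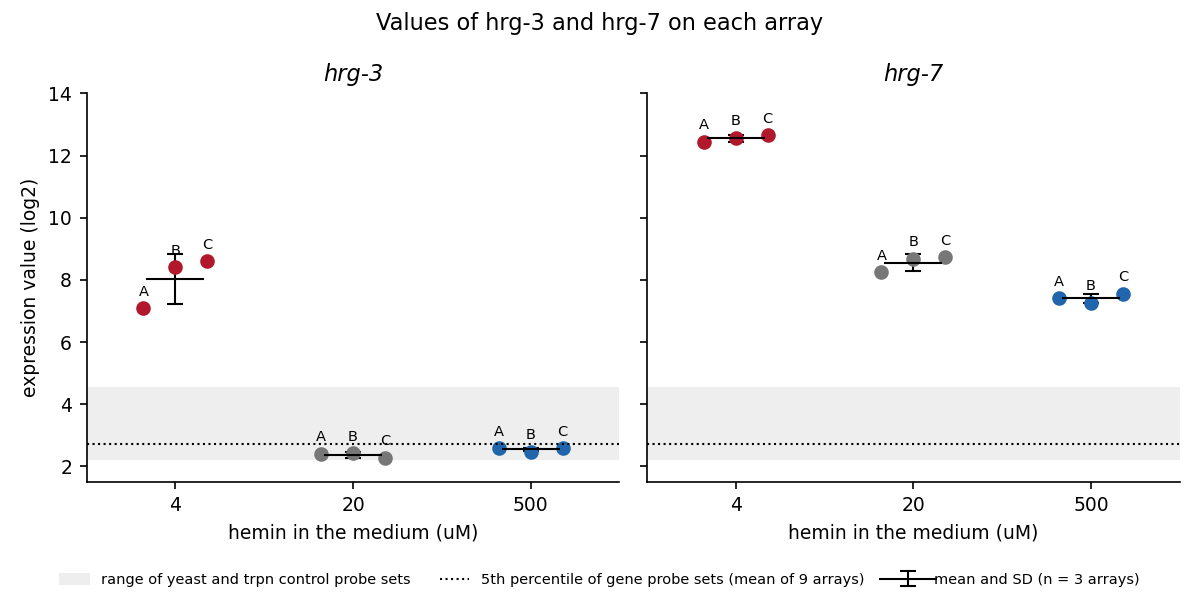
Log2 expression values of *hrg-3* (left) and *hrg-7* (right) on each of the 9 arrays, by hemin concentration in uM; points are arrays lettered by replicate, bars the mean and SD of 3 arrays, the grey band the range of the yeast and trpn control probe sets over all arrays and the dotted line the 5th percentile of gene probe sets. *hrg-3* leaves the band only at 4 uM hemin, while *hrg-7* steps down from 4 to 20 and again from 20 to 500 uM.

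Both genes rose at 4 against 20 uM hemin. The transcript of *hrg-3* averaged 8.03 ± 0.82 at 4 uM and 2.37 ± 0.09 at 20 uM (SD, n = 3 arrays each), a difference of 5.66 (SE 0.31, adjusted p = 1.41e-05). How large the rise of *hrg-3* was depends on where the bottom of the scale is set: it was 5.34 with the 20 uM arrays raised to the 5th percentile of their gene probe sets, and 3.68, or 12.9-fold, with them raised to the highest yeast or trpn control. The transcript of *hrg-7* averaged 12.56 ± 0.11 at 4 uM and 8.55 ± 0.27 at 20 uM (SD, n = 3 each), which is 16.1-fold higher (log2 difference 4.01, SE 0.14, adjusted p = 6.05e-07). By size of the difference *hrg-7* ranked 3 among the 16911 tested probe sets, and no rank is given to *hrg-3*, whose difference depends on the floor. Of all tested probe sets 0.911% were called in this comparison, 0.68% higher and 0.231% lower, and in 7.13% every 4 uM array lay above every 20 uM array. The filter on dim probe sets used the mean over all arrays, and *hrg-3* passed it only through its 4 uM values.

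At 500 against 20 uM hemin only *hrg-7* could be compared, since a change of *hrg-3* below the bottom of the scale would not be seen. The *hrg-7* transcript averaged 7.41 ± 0.15 at 500 uM and 8.55 ± 0.27 at 20 uM (SD, n = 3 each), so it fell by 1.14 on the log2 scale (SE 0.14, adjusted p = 0.0115), which is 2.20-fold lower. It ranked 14 of 16911 by p, in a comparison where 0.242% of the tested probe sets were called, 0.154% higher and 0.0887% lower, and in 7.78% every 500 uM array lay below every 20 uM array. This call rested on the full set of arrays. When replicate B or C of 20 uM, or replicate A or B of 500 uM, was left out, the adjusted p was 0.0602 to 0.0785, although the difference stayed between -1.29 and -1.05 over all 9 fits that left out 1 array. The *hrg-3* difference of 0.17 (SE 0.31, adjusted p = 0.99) lies between 2 groups at the bottom of the scale and gives no fold change.

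**Figure D2:**
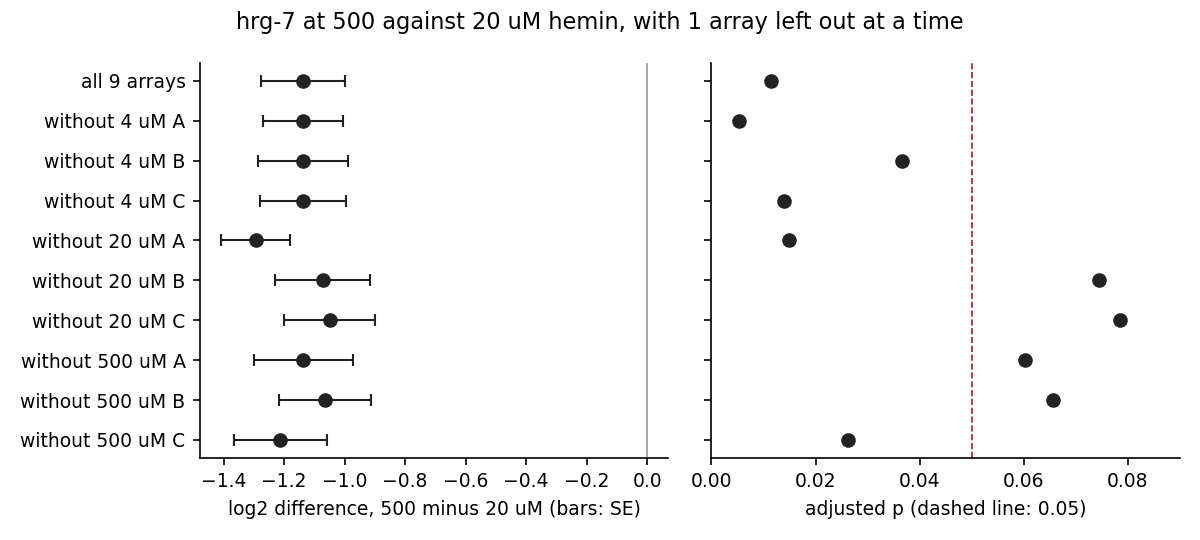
The *hrg-7* log2 difference of 500 minus 20 uM hemin with its SE (left) and its adjusted p (right), for all 9 arrays and with each array left out in turn. The difference stays below 0 throughout, and the adjusted p exceeds 0.05 in the 4 fits that leave out replicate B or C of 20 uM or replicate A or B of 500 uM.

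Between the extremes both genes were lower at 500 uM. At 500 against 4 uM hemin *hrg-7* fell by 5.15 (SE 0.14, adjusted p = 9.74e-08), or 35.4-fold, and ranked 1 of all tested probe sets by p. The *hrg-3* difference was -5.49 (SE 0.31, adjusted p = 1.9e-05) as measured, and the groups lay 5.32 log2 units apart with the 5th percentile as floor and 3.72 with the highest yeast or trpn control as floor. Here 2.07% of the tested probe sets were called, 0.769% higher and 1.3% lower, and 6.69% separated fully in that direction.

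Per doubling of the hemin concentration, *hrg-7* lost 1.73 log2 units between 4 and 20 uM (SE 0.06) and 0.25 between 20 and 500 uM (SE 0.03). These slopes differed by 1.48 (SE 0.08, limma adjusted p = 2.67e-05), a contrast chosen after the values were seen. No slope is given for *hrg-3*, whose values at 20 and 500 uM are bounds.

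Whether *hrg-3* rose more than *hrg-7* at 4 uM hemin depends on where the bottom of the scale is set. Array by array, *hrg-3* minus *hrg-7* was -5.35, -4.18 and -4.06 at 4 uM and -5.83, -6.26 and -6.46 at 20 uM, so the deposited values put the rise of *hrg-3* 1.65 log2 units above that of *hrg-7* (SE 0.45). The exact two-sided permutation test over the 3 and 3 arrays gave p = 0.1, the smallest p this design allows (0.15 after Benjamini-Hochberg adjustment over the 3 comparisons of this kind). With both genes raised to the highest of the yeast and trpn controls on each array, the difference was -0.32 (exact permutation p = 0.7), in the other direction.

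The *hrg-3* readings differed among the 4 uM arrays, and an unlike array cannot be told apart from an unlike amount of transcript. Replicate A deviated by -1.41 from the mean of B and C, whereas the SD of such deviations over all tested probe sets on that array was 0.43. The SD of *hrg-3* within 4 uM was larger than that of 98.7% of the tested probe sets. On the same array *hrg-7* lay only 0.18 below the mean of B and C. Without replicate A the *hrg-3* rise over 20 uM was 6.13 as measured (SE 0.09, adjusted p = 5.91e-10) and that of *hrg-7* 4.07 (SE 0.15, adjusted p = 6.25e-07). The 20 uM values of *hrg-3* are bounds, so the size of 6.13 depends on where the bottom of the scale is set. The SE of *hrg-3* in this fit rests mostly on arrays at that bottom, where the spread is small (SD 0.09 at 20 uM). This SE and p therefore say little about the spread of *hrg-3* at 4 uM. For *hrg-7* the group with an unusual spread was 20 uM, where replicate A lay 0.46 below the mean of B and C and the SD exceeded that of 96.1% of the tested probe sets.

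Of 8 other listed genes of heme transport 5 were measured, and 2 of them rose at 4 against 20 uM hemin while 3 did not pass. All 5 differences were positive, and 5 had an unadjusted p under 0.05 in limma. The median of the 5 differences was 1.59, against 0.02 over all tested probe sets. Genes named *hrg* were picked with the help of these arrays, so this median is not independent evidence. The heme importer gene *hrg-1* read 10.55, 10.75 and 10.74 at 4 uM and 6.58, 6.82 and 6.74 at 20 uM, a rise of 3.97 (SE 0.11, adjusted p = 1.99e-07). The gene of the heme exporter MRP-5, *mrp-5*, rose by 1.59 (SE 0.12, adjusted p = 0.000133). A dimmer probe set of *mrp-5* gave 1.76 (SE 0.13). The *hrg-4* gene, whose product imports heme into the intestine, differed by 2.46 (SE 0.60, adjusted p = 0.144). On 4 uM replicate A it read 6.35, against 8.89 and 9.33 on B and C, so the array that was low for *hrg-3* was low for *hrg-4* too. This array was unlike the rest as a whole, and whether the low readings are particular to heme genes was not tested. Without this array 4 of the 5 rose. The TANGO2-like genes *hrg-9* and *hrg-10* differed by 0.70 (SE 0.19, adjusted p = 0.199) and 0.24 (SE 0.10, adjusted p = 0.521). A dimmer probe set of *hrg-9* gave 0.42 (SE 0.14), with its 20 uM values below the highest yeast or trpn control.

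Of the same 5 genes limma called 0 at 500 against 20 uM hemin, and 0 reached an unadjusted p under 0.05. The differences were -0.01 for *hrg-1* (SE 0.11), 0.09 for *mrp-5* (SE 0.12), 0.21 for *hrg-9* (SE 0.19), 0.10 for *hrg-10* (SE 0.10) and -0.83 for *hrg-4* (SE 0.60). The SE of *hrg-4* pools the spread of its 4 uM arrays (SD 1.61) with SDs of 0.08 at 20 uM and 0.20 at 500 uM. It read 5.68, 5.68 and 5.82 at 20 uM and 4.69, 5.09 and 4.90 at 500 uM. Every 500 uM array thus lay below every 20 uM array, as in 7.78% of all tested probe sets. In a fit without 4 uM replicate A, and in one of only the 6 arrays compared, 1 of the 5 was called lower. At 500 against 4 uM, *hrg-1*, *hrg-4* and *mrp-5* fell, and the number called was 2 to 4 when 1 array was left out, with 2 in 5 of the 9 fits.

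**Figure D3:**
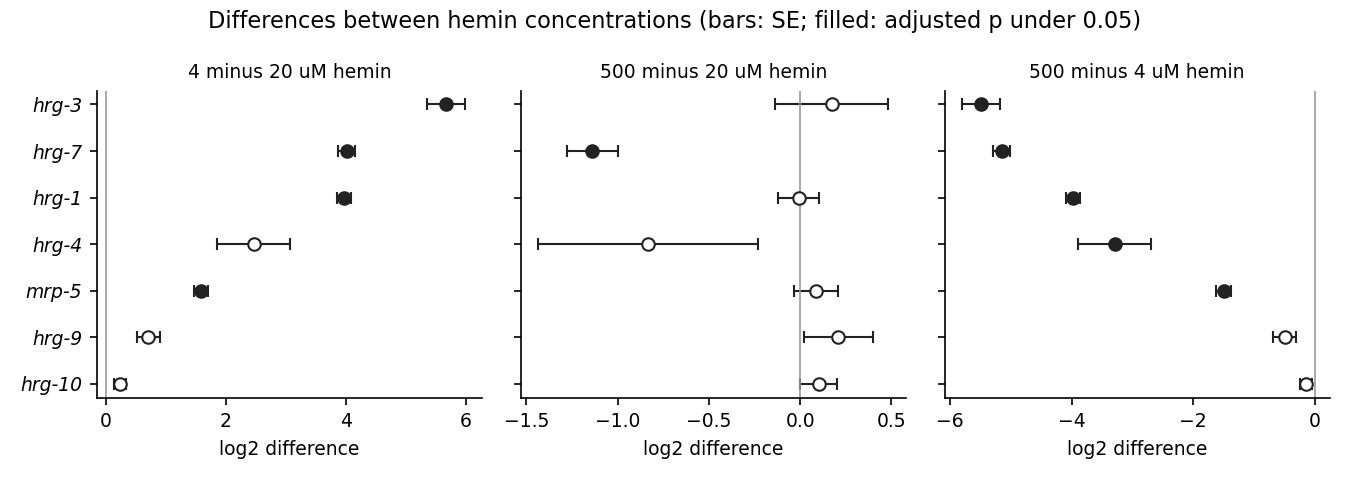
Log2 differences between hemin concentrations with their SE for *hrg-3*, *hrg-7* and the 5 measured genes of heme transport, in 3 comparisons whose horizontal axes differ; filled points have an adjusted p under 0.05. At 500 minus 20 uM only the *hrg-7* point is filled, with a difference of -1.14. The *hrg-4* point lies at -0.83 there, with an SE of 0.60 that pools the spread of its 4 uM arrays.

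The importer gene *hrg-1* and *hrg-7* rose by nearly the same amount at 4 uM hemin and were set against each other array by array, a comparison chosen after the values were seen. The value of *hrg-7* minus *hrg-1* was 1.89, 1.83 and 1.91 at 4 uM, 1.66, 1.87 and 1.99 at 20 uM, and 0.88, 0.52 and 0.72 at 500 uM. The 500 uM arrays lay below all others and those of 4 and 20 uM overlapped. The change at 4 against 20 uM thus differed by 0.04 between the genes (SE 0.10, exact permutation p = 0.8), with a range of -0.049 (without 20 uM A) to 0.11 when 1 array was left out. At 500 against 20 uM the change of *hrg-7* lay 1.13 below that of *hrg-1* (SE 0.14, exact permutation p = 0.1, the smallest this design allows), or 0.15 after Benjamini-Hochberg adjustment over 3 such comparisons.

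Among the aspartic protease genes named *asp*, 15 of 19 listed were measured and 11 passed the filter on dim probe sets. At 4 against 20 uM hemin 2 of these 11 rose, 2 fell and 7 did not pass, with a median difference of 0.09. The gene *asp-8* read 10.58, 10.38 and 10.26 at 4 uM and 9.22, 9.27 and 9.15 at 20 uM, and rose by 1.19 (SE 0.16, adjusted p = 0.00667). The call of *asp-7* (adjusted p = 0.0227) lies at the bottom of the scale: it read 3.92, 3.99 and 3.83 at 20 uM, below the highest yeast or trpn control on each of these arrays, so no size is given. In contrast, *asp-12* fell by 1.23 (SE 0.16, adjusted p = 0.00568), with 10.89, 10.47 and 10.14 at 4 uM and 11.72, 11.80 and 11.68 at 20 uM. The fall of *asp-14* was 1.43 (SE 0.21, adjusted p = 0.00922). Without 20 uM A or without 20 uM B only 1 *asp* gene rose and 1 fell. The difference of *asp-8* was the largest positive one among the 11, against 4.01 for *hrg-7*, and the difference between these genes was not tested.

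Among the 11 *asp* genes limma called 0 at 500 against 20 uM hemin, and 5 reached an unadjusted p under 0.05. In a fit without 4 uM replicate A 1 was called higher. The differences ran from -0.64 for *asp-14* (SE 0.21) to 0.71 for *asp-12* (SE 0.16, adjusted p = 0.17). At 500 against 4 uM *asp-8* fell, with a difference of -1.56 (SE 0.16), *asp-7* was called lower with its 500 uM values in the same dim range, and *asp-12* and *asp-3* rose, by 1.94 (SE 0.16) and 0.34 (SE 0.07).

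**Figure D4:**
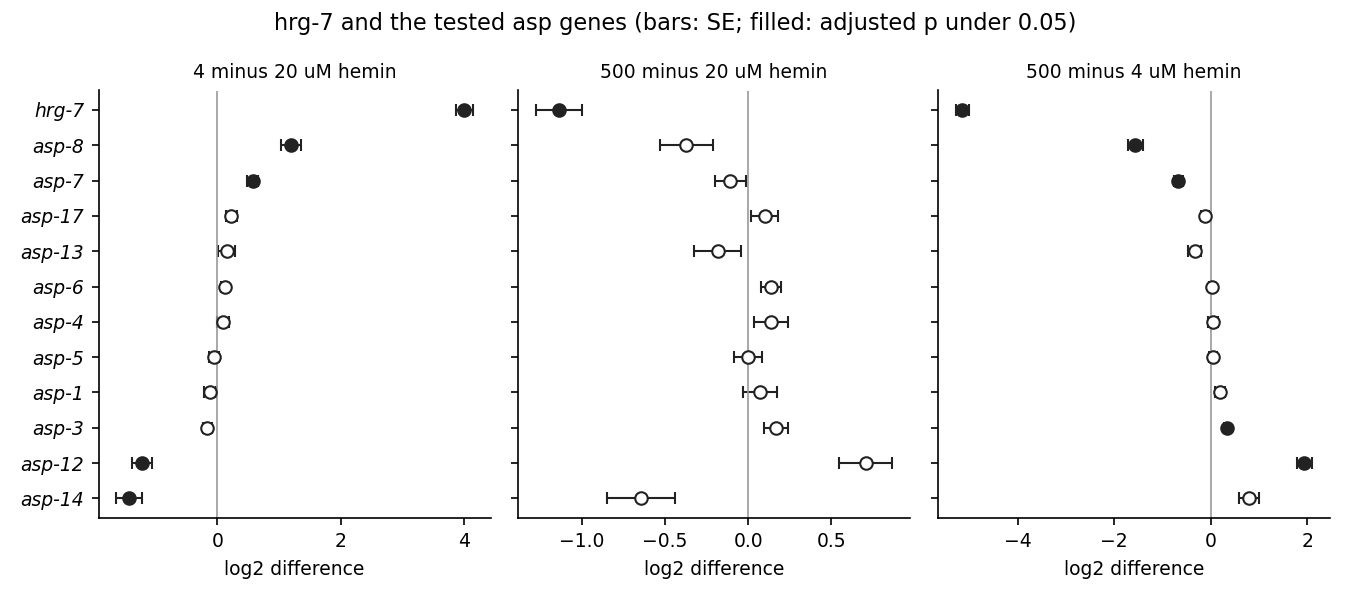
Log2 differences with their SE for *hrg-7* and the 11 tested *asp* genes in 3 comparisons whose horizontal axes differ, ordered by the difference of 4 minus 20 uM; filled points have an adjusted p under 0.05. At 4 minus 20 uM *hrg-7* stands at 4.01, while *asp-8* at 1.19 and *asp-14* at -1.43 bound the family.

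Of 13 listed genes of the DBL-1 pathway 12 were measured, and 0 passed in limma in any of the 3 comparisons. At an unadjusted p under 0.05 there was 1 at 4 against 20 uM, 1 at 500 against 20 uM and 3 at 500 against 4 uM. The median difference at 4 against 20 uM was -0.02. The ligand gene *dbl-1* differed by 0.13 (SE 0.10, adjusted p = 0.747) and the receptor gene *daf-4* by -0.37 (SE 0.17, adjusted p = 0.583). Dimmer probe sets of *dbl-1* and *daf-4* gave 0.01 (SE 0.24) and -0.07 (SE 0.13). The genes *sma-10* and *drag-1* both encode extracellular or membrane proteins that modulate the pathway. The difference of *sma-10* was -0.29 (SE 0.12, adjusted p = 0.498). On every 4 and 20 uM array *drag-1* read below the highest yeast or trpn control, so no size is given (limma adjusted p = 0.582).

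Yolk and oocyte genes were listed because HRG-3 is known to act on the way to oocytes. Of 6 measured genes for yolk proteins and their receptor 2 rose at 4 against 20 uM hemin, with a median difference of 1.84. The yolk gene *vit-2* rose by 2.62 (SE 0.44, adjusted p = 0.0252), with 20 uM A and B below the highest yeast or trpn control, and *vit-1* by 0.59 (SE 0.11, adjusted p = 0.0454). The differences of *vit-6* and *vit-4* were 1.94 (SE 0.38, adjusted p = 0.0544) and 1.93 (SE 0.44, adjusted p = 0.103). Probe sets of the *vit* genes can share signal, since these genes are near copies. The number that rose ran from 0 to 5 when 1 array was left out, namely 5 without replicate A of 4 uM, 0 without replicate B or C of 4 uM, A or B of 20 uM or B of 500 uM, and 1 without replicate C of 500 uM. The oocyte receptor gene of yolk, *rme-2*, differed by 0.56 (SE 0.17, adjusted p = 0.28). Of the 6 genes limma called 0 at 500 against 20 uM, with 1 at an unadjusted p under 0.05. At 500 against 4 uM 5 of the 6 fell, with a median difference of -2.33: *vit-1*, *vit-2*, *vit-4*, *vit-5* (-2.20, SE 0.47, adjusted p = 0.0449) and *vit-6*. That count was 3 without replicate B of 4 uM or replicate A or B of 500 uM.

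The intestine is where both proteins are known to be made. Of 10 intestine markers 0 passed in limma in any comparison, with 2, 2 and 0 at an unadjusted p under 0.05 for 4 against 20, 500 against 20 and 500 against 4 uM. The summed level of the list ran from 12.89 to 13.22 (log2) at 4 uM, 12.94 to 13.06 at 20 uM and 12.95 to 13.19 at 500 uM. The largest difference of a marker at 4 against 20 uM was 0.41, for the intermediate filament gene *ifd-2*, and the gut regulator gene *elt-2* differed by 0.38 (SE 0.13, adjusted p = 0.354).

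Markers of oocytes and sperm moved with the hemin groups, those of oocytes mainly between 4 uM and the rest. Of 13 oocyte and embryo markers 5 rose at 4 against 20 uM and all 13 differences were positive. Their summed level ran from 12.10 to 12.81 at 4 uM and from 11.62 to 11.77 at 20 uM. Of 22 measured major sperm protein genes 0 passed in limma at 4 against 20 uM, 22 had an unadjusted p under 0.05 and the summed level was 14.77 to 15.93 at 4 uM and 14.29 to 14.71 at 20 uM. At 500 uM that sum was 13.36 to 14.13, below 20 uM, with 0 passed and 16 at an unadjusted p under 0.05, in the comparison in which *hrg-7* fell. At 500 against 4 uM, where both *hrg-3* and *hrg-7* were lower, 21 of the 22 sperm genes and 6 of the 13 oocyte and embryo markers fell, with median differences of -1.54 and -0.81. Probe sets of the major sperm protein genes can share signal, as those of the *vit* genes can, so these 22 are not independent. Of 8 hypodermis and cuticle markers 1 rose at 4 against 20 uM, the adult collagen gene *col-19*. Of 8 muscle and 10 neuron markers limma called 0 of each in any comparison. At an unadjusted p under 0.05 there were 0 of each at 4 against 20 and at 500 against 20 uM, and 1 of each at 500 against 4 uM. The part of these markers in the *hrg-3* and *hrg-7* results was not tested.

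The likeness of other genes to *hrg-3* and *hrg-7* was measured as Pearson's r over the 9 arrays, among 1888 other probe sets with 1 gene symbol and a range of at least 1 log2 unit. It is a description: the 3 arrays of 4 uM stand far from the other 6, so every r mainly shares that step. The genes most like *hrg-3* were *mrp-5* (r = 0.992), F32H5.1 (0.991), *hrg-1* (0.991), C44B7.5 (0.991) and the UDP-glucuronosyltransferase gene *ugt-17* (0.991). All 5 were lower on 4 uM A than on B and C, as was *hrg-3*, and differed by -0.03 to 0.19 between 500 and 20 uM. They were picked by likeness over these same arrays, so the shared pattern follows in part from the choice.

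The genes most like *hrg-7* were another set: the cathepsin B-like protease gene *cpr-8* (r = 0.995), R193.2 (0.991), *perm-4* (0.989), the omega-class glutathione transferase gene *gsto-1* (0.988) and C39D10.7 (0.983). All 5 had a lower mean at 500 than at 20 uM, with differences from -0.91 to -0.23, and of these *cpr-8* fell (log2 difference -0.91, adjusted p = 0.024). Having been picked by likeness to *hrg-7* over the same arrays, they share its steps in part by that choice. For *perm-4*, an eggshell gene, the probe set picked was 1 of 4, and it was the dimmest of them. On every 500 uM array it read below the highest yeast or trpn control. At 500 against 20 uM the other *perm-4* probe sets differed by -0.08 (SE 0.11, the brightest), -0.37 (SE 0.13) and 0.15 (SE 0.15). Between *hrg-3* and *hrg-7* r was 0.962, which 24 other probe sets exceeded for *hrg-3* and 22 for *hrg-7*.

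**Figure D5:**
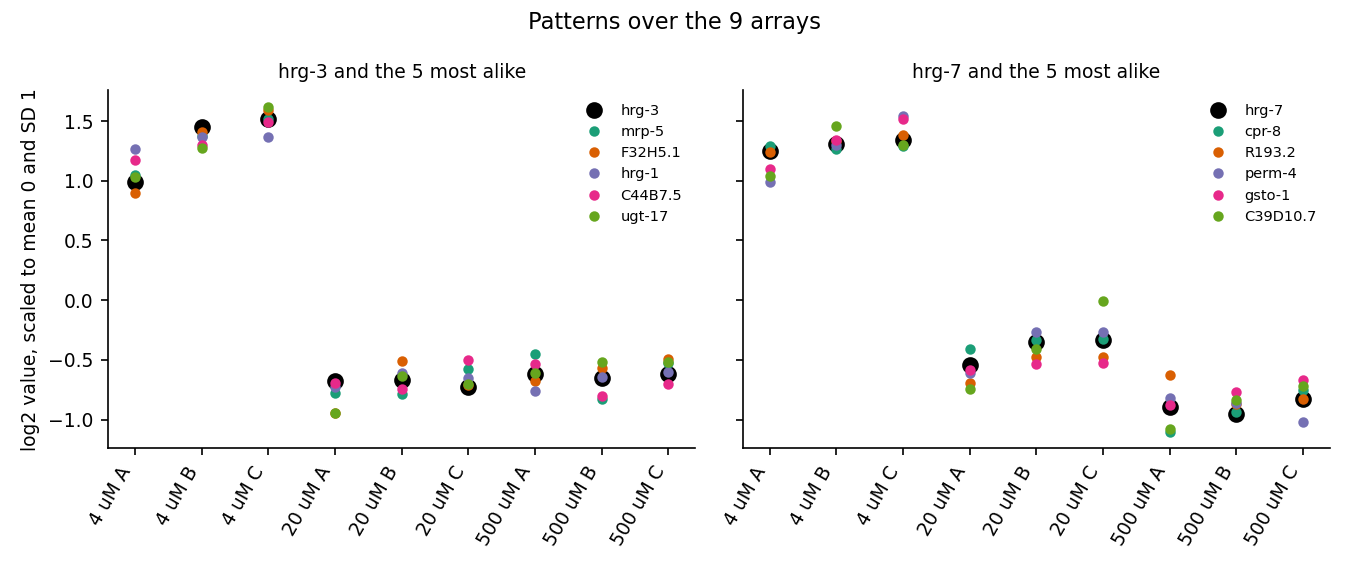
Log2 values on the 9 arrays, scaled to mean 0 and SD 1 per probe set, for *hrg-3* (left) and *hrg-7* (right) in large black points and for the 5 genes most like each in colour. On the left the 20 and 500 uM arrays lie together, and on the right the 500 uM arrays lie below most of those of 20 uM. The genes were picked on these same values.

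Of the nearest protein-coding neighbours of *hrg-3* and *hrg-7*, 3 on each side by the gene order of assembly WBcel235, 0 of those tested were called by limma at 4 against 20 or 500 against 20 uM. C15C8.7, which overlaps *hrg-7*, differed by 0.03 at 4 against 20 uM hemin and by -0.02 at 500 against 20 uM. On the other side of *hrg-7* the differences were -0.11 and -0.35 for *cky-1*. F58E6.11, which overlaps *hrg-3*, is not analysed here. Next to *hrg-3*, F58E6.8 was too dim to pass the filter and read 3.6, 4.27 and 4.18 at 4 uM, 3.18, 3.31 and 3.14 at 20 uM, and 3.50, 3.44 and 3.07 at 500 uM. Beyond it, F58E6.5 differed by 0.49 at 4 against 20 uM (adjusted p = 0.662). These neighbours were looked up after the values of *hrg-3* and *hrg-7* were seen.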

How the data were processed

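Of each array, 1 log2 value per probe set was deposited, normalized between arrays by the authors. MAS5 and RMA are both named, with no version, per the submitters' processing notes, and the labels do not say which made the table. Such processing can compress differences among dim probe sets. Detection calls and scan dates were not used here. Groups and replicate letters came from the titles, and no other value column was present. There were 77 control probe sets, and 20766 others carried 1 gene symbol, 20701 of which matched a current gene table by Entrez identifier.

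The dimmest 25% of gene probe sets by mean were left out, which left 16911. With limma 3.58.1 in R 4.3.3, a mean for each concentration was estimated from all 9 arrays together (6 residual degrees of freedom, variances following the mean level). Two-sided p-values were adjusted within a contrast by Benjamini-Hochberg. The fit was tested on simulated data. Differences between 2 genes per array were compared by exact two-sided permutation. A gene's brightest probe set stood for it. Besides the 2 members, the text names every measured gene of the heme transport list, from the *asp*, DBL-1 pathway and yolk lists the 4 with the smallest p at 4 against 20 uM and any called, and the 5 probe sets most like each member. Members and lists were chosen with earlier results of these data known. Figures were drawn with matplotlib 3.10.9.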

Additional observations from a re-analysis of the deposited data

How the results depend on the processing

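Over quantile normalization, centring, other filters, other variance priors, the replicate block, array weights, fits of 6 arrays, a fold of at least 1.6 and every left-out array, *hrg-3* and *hrg-7* kept direction and call at 4 against 20 uM (5.38 to 6.13 and 3.8 to 4.10 over these and the spike centring below) and at 500 against 4 uM (-5.96 to -5.21 and -5.22 to -5.06). A filter on more of the dimmest probe sets, up to the median, removed *hrg-3*. At 500 against 20 uM *hrg-7* ran from -1.29 to -1.05 without 1 array, with calls lost in 4 of 9 fits. The titles do not say whether the replicate letters pair the samples. Same-letter deviations correlated at -0.15 to 0.29, and 4 of 9 pairs passed 0.1, which cannot settle it. With the replicate block *hrg-7* gave -1.14 at 500 against 20 uM (limma adjusted p = 0.0191). With it 4 yolk genes rose at 4 against 20 uM in place of 2.

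Centring on the poly-A spike controls, added after seeing the data, moved the median of all genes to -0.19 at 4 against 20 uM and to -0.11 at 500 against 20 uM. The control medians spread from 8.69 to 9.79 within 20 uM alone. Under it *hrg-7* at 500 against 20 uM was -1.26 (adjusted p = 1), and at 4 against 20 uM 3.8. Of the *asp* genes 0 were called at 4 against 20 uM and 0 at 500 against 4 uM, and 1 yolk gene at 4 against 20 uM. Raising both genes to the highest yeast or trpn control gave 1.43 for *hrg-3* minus *hrg-7* at 500 against 4 uM (against -0.34 as deposited) and -0.32 at 4 against 20 uM. With the array's median as floor, *hrg-3* differed by 2.59 between 4 and 20 uM and 2.57 between 4 and 500 uM, and with the highest yeast or trpn control by 3.68 and 3.72, in place of 5.34 and 5.32. For *hrg-7* minus *hrg-1* at 4 against 20 uM, leaving out 1 array gave -0.049 (without 20 uM A) to 0.11, around 0.04. The cause of these changes was not tested.

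Counts of called list members moved more. With array weights 4 heme transport genes and 6 yolk genes rose at 4 against 20 uM, 1 *asp* and 1 yolk gene were called at 500 against 20 uM, and 2 DBL-1 pathway genes at 500 against 4 uM. With only 6 arrays 1 heme transport gene and 1 *asp* gene were called at 500 against 20 uM and 3 yolk genes at 500 against 4 uM. A fold of 1.6 left 2 *asp* genes at 500 against 4 uM and 1 yolk gene at 4 against 20 uM, as did quantile normalization, centring and no filter for yolk. Without 1 array, counts at 4 against 20 uM were 2 to 4 (heme transport), 2 to 4 (*asp*) and 0 to 5 (yolk). At 500 against 20 uM they were 0 to 1 for heme transport and 0 to 1 for *asp*, and at 500 against 4 uM 2 to 4 for heme transport, 0 to 1 for the DBL-1 pathway and 3 to 5 for yolk.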
